A study of Mus musculus with 27 samples.

Results

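C57BL/6J is the inbred laboratory strain from which the mouse reference genome was built, and its hepatocytes were compared here with those of 8 other inbred strains. The C57BL/6J group was 3 of 27 libraries, chosen by the strain given in the labels. Each library measured polyadenylated RNA of hepatocytes, the main working cells of the liver, from a female mouse aged 12 weeks, and every strain had 3 libraries labelled as biological replicates. The other classical laboratory strains were NZO/HlLtJ, NOD/ShiLtJ, DBA/2J, A/J and 129S1/SvImJ. CAST/EiJ, PWK/PhJ and WSB/EiJ were derived from wild mice. The labels give no treatment and no engineered allele in any group. The wider study set strain differences in expression beside histone marks and DNA methylation, and expression alone was analysed here.

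Mice of an inbred strain are nearly identical in sequence, so its libraries repeat the same genotype. A difference between strains is thus repeated over mice but rests on a single genotype on the C57BL/6J side. C57BL/6J is known for a deletion of several exons of Nnt, the mitochondrial enzyme that uses the proton gradient to make NADPH from NADH. The hepatocyte makes plasma proteins, bile, cholesterol and urea, and carries the enzymes that clear drugs. Many of these enzymes belong to gene families with near-identical copies that differ between strains.

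The deposited table held estimated counts for 43346 genes. C57BL/6J libraries summed to between 27539670 and 28647081 counts, within the range of 17015956 to 35078511 over all libraries. A single count was worth 0.0342 to 0.0421 CPM (a gene's counts scaled to the normalized size of its library) in C57BL/6J and 0.0253 to 0.0516 over all libraries. Some counts were not whole numbers, which is taken here to mean that reads matching several genes were shared between them. The counting program is not given, and counts called divided below are those that were not whole. Counts of close gene copies are thus uncertain, as are those of overlapping genes, since the library kit is not stated to keep the strand. The submitters' notes name the builds GRCm38 and mm10, which are of the C57BL/6J reference. Whether reads of the other strains were aligned to it or to a genome made for each strain is not given in the sources used here. The part of alignment in the results was not tested.

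The C57BL/6J libraries matched their label as hepatocytes. Alb, the albumin gene, was the marker with the highest counts, and 14 of 15 hepatocyte marker genes did not pass the test against the other strains. Replicate 1 stood apart from the other two. It differed by at least 2-fold from replicate 2 in 633 genes and from replicate 4 in 645 genes, while replicates 2 and 4 differed in 199. Counts below are given without it where that changes them by over 1.5 times.

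Of 14482 genes tested, 1675 were higher in C57BL/6J than the mean of the 8 other strain means, which is 11.6% of them, and 941 were lower, which is 6.5%. The test was edgeR's quasi-likelihood test with Benjamini-Hochberg adjustment, called at an adjusted p under 0.05, with each other strain weighted equally. C57BL/6J was not the extreme strain in most of the higher genes, while in most of the lower genes it was. The C57BL/6J mean was the highest of 9 in 702 of the higher genes (41.9%) and the lowest of 9 in 545 of the lower genes (57.9%). Without replicate 1 the calls numbered 3032, without replicate 2 they numbered 1506, and without replicate 4 they numbered 1350.

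A gene is called particular to C57BL/6J here where it passed the test and its 3 C57BL/6J libraries all lay above, or all below, the 24 other libraries. That was met by 73 higher genes, 0.504% of those tested, and by 50 lower genes, 0.345%. Of these, 62 and 32 differed by at least 2-fold, and 102 of the 123 were protein-coding. Counts were whole numbers in all libraries for 49 of the 123, and were divided between genes in all 27 libraries for 30. By genes called, C57BL/6J was the seventh of 9 strains when each was set against the rest in the same way, and by particular genes the eighth. Without replicate 1, 2 or 4 of C57BL/6J the particular genes numbered 373, 193 and 155, with fewer libraries that had to lie outside. With CPM from library totals, not scaled by TMM factors, 118 genes were particular, and 83 of them were among the 123. CAST/EiJ had 5488 genes called and 1312 particular, and DBA/2J, the strain with the fewest, had 1923 and 115.

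**Figure D1:**
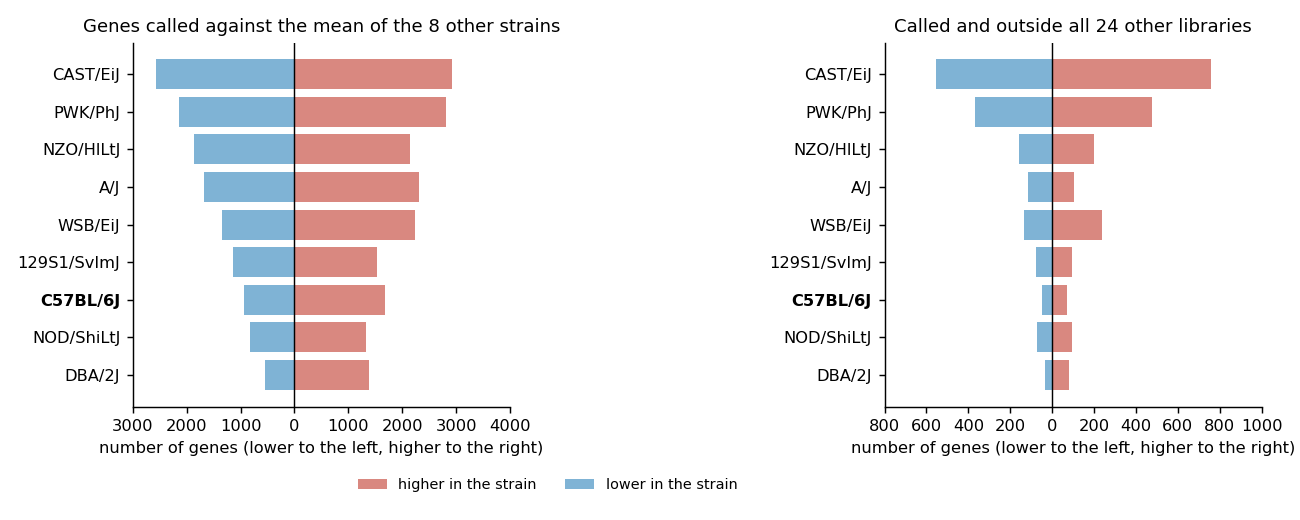
Genes called in each strain against the mean of the 8 others (left) and those also outside all 24 other libraries (right), with the number of lower genes drawn to the left of 0 and of higher genes to the right. C57BL/6J, in bold, has 1675 higher and 941 lower genes, and 73 and 50 particular ones; higher genes outnumber lower genes among the called genes of all 9 strains.

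The test above measures the spread between libraries of a strain, so its p-values say nothing of the spread between strains. With the 8 other strains treated as a single group, so that their differences enter the error, edgeR's quasi-likelihood test called 113 genes (51 higher and 62 lower), 0.78% of those tested, and 70 of the 123 particular genes were among them. With each strain mean as a single sample, limma called 8 genes, 0.0552%, of which 2 were higher and 6 lower. All 8 were particular to C57BL/6J. They were Mup11, Gm16867, Nnt, Hddc3, Gm26825, Gm14292, Tma7-ps and Tdg-ps; those outside the naming rule given further on are named here because limma called them.

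Nnt (ENSMUSG00000025453, GRCm38 chr13:119335448-119408997, minus strand) was lower in C57BL/6J. Its level was 42.9, 37.4 and 36.2 CPM in replicates 1, 2 and 4. The 24 other libraries ran from 98.6 to 191 CPM with a median of 138. No library of another strain came near the C57BL/6J values, and the nearest strain, CAST/EiJ, averaged 2.64 times as much. The log2 difference from the mean of 8 strains was -1.80 (SE 0.11, adjusted p = 1.53e-11, edgeR's quasi-likelihood test). With strain means as samples, where C57BL/6J is a single value and the spread comes from the 8 other strains alone, the adjusted p was 0.0465 (limma). The counts were whole numbers in every library.

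Nnt was the particular gene among enzymes of NADPH supply and mitochondrial redox. Of 25 such genes tested, 1 was higher and 2 were lower, or 4% and 8%, which is below and close to the 11.6% and 6.5% of all tested genes. Without A/J 6 were lower, where 1443 genes were called lower over all, and with Kupffer and endothelial marker levels as covariates 1 was lower and none higher. H6pd, which makes NADPH inside the endoplasmic reticulum, was higher by 0.60 on the log2 scale. Aldh1l1, a folate enzyme that also makes NADPH, fell by 0.45 on that scale relative to the mean of the other strains. The calls of both were lost without C57BL/6J replicate 4, and that of Aldh1l1 also without replicate 1. The median log2 difference over the 25 genes was -0.20, against 0.01 over all tested genes.

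Of 11 tested genes from a list of known strain variants, 5 passed the test: Nlrp12, Slc11a1 and Entpd4 were higher, and Nnt and Wdfy1 were lower, beside 11.6% and 6.5% of all tested genes. Without CAST/EiJ 4 were higher and 4 lower. Wdfy1, which binds endosomal membranes, was particular to C57BL/6J. It had 5.26, 6.69 and 8.83 CPM in C57BL/6J and 9.64 to 20.2 in the other libraries (median 16.1). Nlrp12, a regulator of innate immune signalling, had 13.2, 11.3 and 11.7 CPM in C57BL/6J, against a median of 0.358 elsewhere. A/J held more of it still, up to 24.3 CPM, so its high level was not particular to C57BL/6J. Ahr, the receptor for dioxin and related ligands, had a log2 difference of 0.38 (adjusted p = 0.0717, edgeR's quasi-likelihood test), which missed the threshold.

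The named genes below are the particular genes with at least a 2-fold difference and a mean of 5 CPM in the higher group, ranked by their distance from the nearest other strain. Those limits left 25 higher and 14 lower genes, and with predicted genes, pseudogenes and Mup genes passed over, the first 12 higher genes and all 9 lower ones are named. Their separation is thus what chose them, and their values are a description. With the 8 strains as a single group, 9 of the 12 and 8 of the 9 were still called, the exceptions being Acpp, Folr2, Ces2c and Bco1. With strain means as samples, 0 of the 12 and 2 of the 9, Nnt and Hddc3, were called by limma. The non-overlap also depended on the scaling: with CPM from library totals alone, 12 of the 12 and 7 of the 9 lay outside the other libraries, and Bckdhb and Bco1 did not.

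Among the higher genes, those of immune function came from families that differ between strains in copy number and sequence. H2-K1 (GRCm38 chr17:33996017-34000347) encodes a heavy chain of the class I molecules that present peptides to T cells. It had 1605, 2048 and 2248 CPM in C57BL/6J and 135 to 1232 in the other libraries, with a median of 349. The nearest strain was 129S1/SvImJ at 966 ± 231 CPM (SD, n = 3), and C57BL/6J was 2.04 times higher. Gvin1, a very large GTPase that interferon induces (chr7:106156556-106215326), had 5.98, 9.86 and 11.9 CPM, while no library of another strain passed 1.81. Trim12a, a member of the TRIM family of antiviral ubiquitin ligases (chr7:104299894-104315466), had 7.59, 6.24 and 6.81 CPM against at most 2.91. Counts of these 3 genes were divided with other genes in all 27 libraries, and H2-K1 sequence varies between the major histocompatibility haplotypes of the strains.

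Folr2, a folate receptor of macrophages (chr7:101839988-101857194), had 8.99, 7.76 and 6.14 CPM in C57BL/6J. In the other strains it ran from 0 to 3.91 with a median of 1.05. A/J, at 3.11 CPM, was nearest. Folr2 belongs to the Kupffer cell markers described further on.

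Several other higher genes act in lipid and drug handling. Pltp, which moves phospholipids between lipoproteins (chr2:164839518-164857711), had 49.9, 62.5 and 85.3 CPM against 2.81 to 40.8 elsewhere. Ugt1a5, which attaches glucuronic acid to drugs and bilirubin-like compounds, had 205, 446 and 509 CPM against 22.6 to 197. Its transcripts share exons with the other genes of the Ugt1a locus, and replicate 1 lay just above the highest other library. Ces2c, a carboxylesterase that splits esters and drugs, had 51.3, 78.4 and 70.4 CPM against 1.24 to 43.2. Its log2 difference was 1.96 (SE 0.22).

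Pttg1 (chr11:43420250-43426251) encodes securin, which holds back the protease that separates sister chromatids. It had 11.1, 8.42 and 7.19 CPM in C57BL/6J and 0.0996 to 1.48 in the others, with whole counts in every library. The log2 difference was 3.83 (SE 0.22, adjusted p = 3.71e-12, edgeR's quasi-likelihood test), and the gap to the nearest strain, NZO/HlLtJ, was 8.01-fold. Loxl4, which crosslinks collagen (chr19:42593982-42612813), had 8.72, 5.17 and 9.67 CPM against a median of 0.136, with DBA/2J nearest at 2.80. Acpp, an acid phosphatase (chr9:104288251-104337748), had 10.1, 21.8 and 24.4 CPM against a median of 0.0879. Its range elsewhere ran up to 8.19 CPM in PWK/PhJ, whose mean was 4.41 ± 3.70 (SD, n = 3).

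Npr2, a natriuretic peptide receptor that makes cyclic GMP (chr4:43631935-43651244, plus strand), had 76.5, 97.2 and 94.4 CPM against 5.93 to 56.2 elsewhere. The particular gene Gm12473 overlaps it on the opposite strand, and since the strand is not stated, their counts are uncertain. Tmem260, a membrane protein (chr14:48446124-48524246), had 26.9, 31.7 and 36.7 CPM against 10.5 to 22.3. Its log2 difference of 1.12 (SE 0.12) was the smallest of the 12.

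Among the lower genes, Cyp2c39, a cytochrome P450 of the 2C family (chr19:39510862-39568529), had 5.50, 6.24 and 5.64 CPM in C57BL/6J. The other libraries ran from 77.8 to 1284 CPM with a median of 782, so even CAST/EiJ, the nearest strain, was 14.7 times higher. Its neighbour Cyp2c37 was particular in the opposite direction, with 1826, 1965 and 1716 CPM in C57BL/6J against 242 to 1314 (named after its values were seen). Reads of both genes were divided with other genes, Cyp2c37 in all libraries and Cyp2c39 in 26 of 27.

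Hddc3, a hydrolase that removes a phosphate from NADPH (chr7:80343104-80350547), had 0.581, 0.780 and 0.883 CPM in C57BL/6J and 4.01 to 11.9 in the other libraries. Its counts were whole in every library, and WSB/EiJ, the nearest strain, was 6.39 times higher. With strain means as samples it was called like Nnt (adjusted p = 0.0465, limma). Pik3c2g, a lipid kinase subunit (chr6:139587221-139969284), had 3.62, 3.94 and 2.86 CPM against 9.84 to 30.5.

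Extl1, a glycosyltransferase of the heparan sulfate family (chr4:134356372-134383850), had 3.59, 3.98 and 4.50 CPM against 5.86 to 40.1. Tymp, the thymidine phosphorylase (chr15:89371931-89377039), had 60.7, 34.2 and 53.5 CPM against 72.7 to 151. Bckdhb, the E1 beta subunit of the complex that breaks down branched-chain amino acids (chr9:83925145-84124240), had 41.2, 42.3 and 35.1 CPM against 50.6 to 117. Bco1, which cleaves beta-carotene to retinal (chr8:117095854-117133720), had 3.11, 3.08 and 2.36 CPM against 3.75 to 12.2, and its log2 difference was -1.04 (SE 0.19). The lowest other library of Bco1 was thus close to the highest C57BL/6J library. Together with Nnt and Wdfy1 these complete the 9 lower genes.

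**Figure D2:**
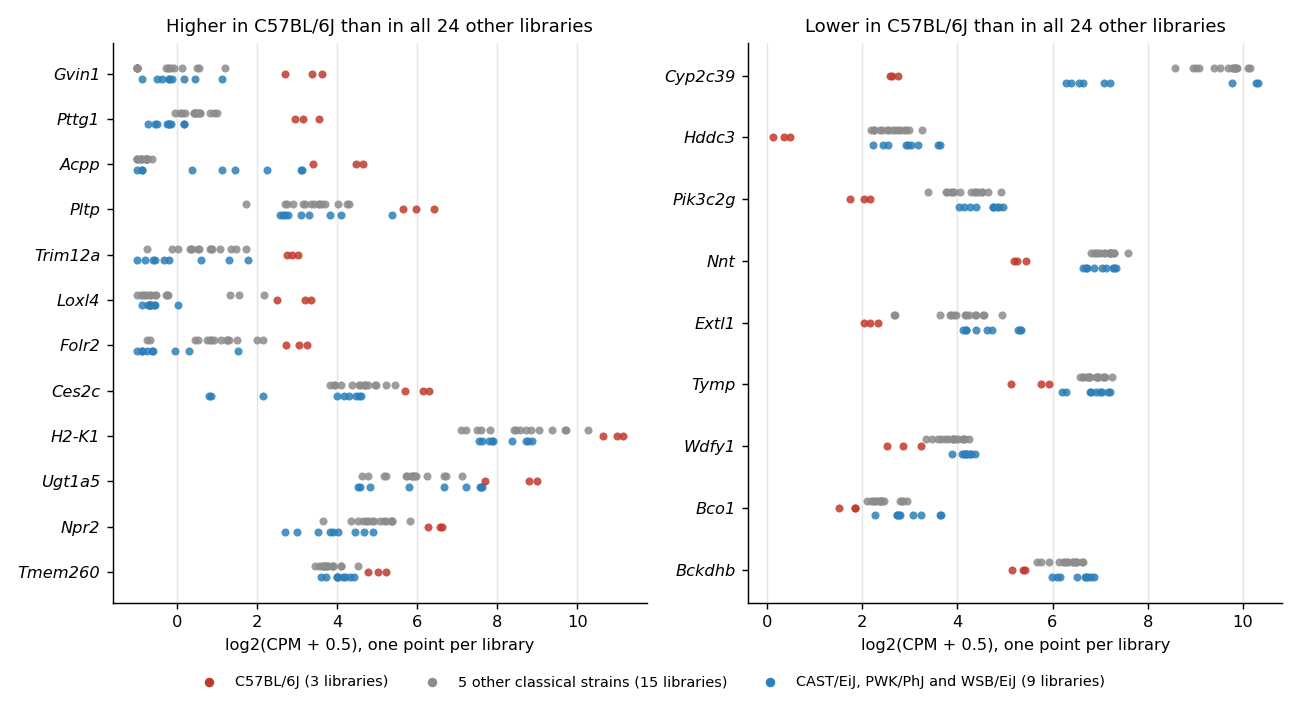
Level of the 12 higher (left) and 9 lower (right) named genes in each library, as log2(CPM + 0.5) with a point per library. The C57BL/6J points (red) lie outside the points of the 5 other classical strains (grey) and of the 3 wild-derived strains (blue) in every row, with the widest gap for Cyp2c39 and the narrowest for Ugt1a5 and Wdfy1.

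The major urinary protein genes, which encode carriers of urinary scent compounds and sit in a cluster of near-identical copies, were left out of the naming rule. A pair of them, named here after their values were seen, were abundant in C57BL/6J and low in every other strain. Mup11 had 2691, 3448 and 3359 CPM in C57BL/6J and 10.2 to 111 in the other libraries. Mup15 had 1006, 1147 and 1157 CPM against 0 to 5.27. Both had counts divided between copies in all 27 libraries, so the amounts assigned to each copy are uncertain. Mup2, of the same family, was lower, at 7.96, 10.4 and 10.1 CPM in C57BL/6J against a median of 1800.3 elsewhere, and WSB/EiJ was as low at 7.58.

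Some particular genes lay near each other, among them overlapping genes and gene copies. Of the 121 with coordinates, 39 had another particular gene starting within 1 Mb on the same chromosome, in 14 runs. The same count was not made for other genes, so whether these numbers are high was not tested. In 8 runs all genes differed in the same direction, and in 6 the directions were mixed. The longest, on chromosome 4 (chr4:42714926-43651244), held Gm21955, Ccdc107, Tpm2, Gm12473 and Npr2, all higher. Chromosome 4 as a whole held 14 of the 73 higher genes, the Mup copies included, and 2 of the 50 lower ones, beside 6.56% of tested genes with a chromosome.

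Runs of a single direction outside gene families included Cebpe, Ppp1r3e and Rec8 on chromosome 14 (chr14:54710360-55625395). Cebpe, a transcription factor of granulocyte development, had 1.61, 1.48 and 1.85 CPM in C57BL/6J and at most 0.177 elsewhere. A run of interferon-inducible DNA sensors on chromosome 1 (chr1:173747293-174822729) held Ifi204, Mndal and Ifi211, all higher, and Fmn2, an actin nucleator, which was lower. Ifi204 had 3.18, 3.29 and 3.74 CPM against 0 to 1.76, with counts divided between copies in 25 of 27 libraries. These run members were also named after their values were seen.

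Gene groups of liver function were then counted, with the share of all tested genes called (11.6% higher and 6.5% lower) as the background. The lists held 906 tested genes, of which 295 were called. With strain means as samples, 1 of the 906, Nnt, was called by limma. With the 8 strains as a single group 11 of the 906 were called: Cfhr2, Cyp2c37, Cyp2c39, Entpd4, H2-K1, Hspa8, Nnt, Pltp, Slc1a2, Ugt1a5 and Wdfy1. The groups below therefore describe C57BL/6J against this set of 8 strains. For counts of 5 or more the value is also given where leaving out replicate 1, 2 or 4 of C57BL/6J, CAST/EiJ or A/J moved it by over 1.5 times. Markers of Kupffer and endothelial cells were higher or had positive medians beside these groups, so for most groups counts are also given from a fit with the mean levels of both marker lists as covariates, called the marker-adjusted fit. The part of these cells in each count was not tested. The Kupffer list mean was itself 1.43 higher in C57BL/6J than the mean of the 8 others. Strain and marker level therefore overlap in that fit, and a lost call does not show its cause. Each such count has its own background. Over all genes tested, 3.28% were called higher and 2.55% lower in the marker-adjusted fit, 11.7% and 8.68% without replicate 1, 6.56% and 3.56% without replicate 2, and 6.15% and 2.91% without replicate 4. Without CAST/EiJ the shares were 8.73% and 5.05%, and without A/J they were 13.8% and 10%. The genes named in each list are those with the smallest adjusted p, and a few others, chosen after their values were seen, are marked as such.

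**Figure D3:**
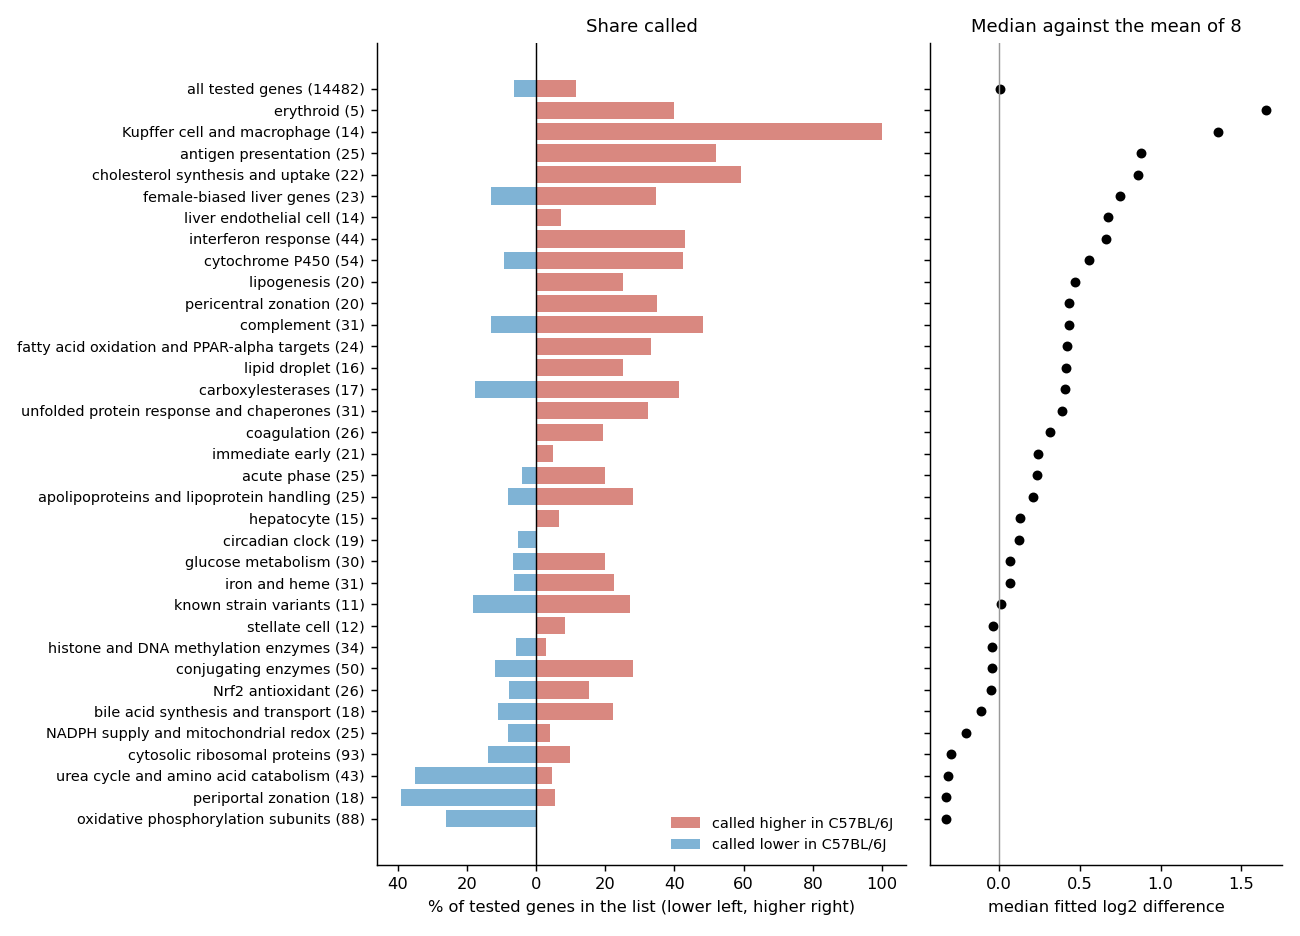
Share of tested genes of each list called lower (left of 0) and higher (right of 0) in C57BL/6J against the mean of the 8 other strains, and the median log2 difference of each list, with the number of tested genes in brackets. All 14 Kupffer cell markers and 13 of 22 cholesterol genes were called higher, and 23 of 88 oxidative phosphorylation genes lower, beside 11.6% and 6.5% of all tested genes.

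Markers of Kupffer cells, the resident macrophages of the liver, were higher in C57BL/6J: 14 of 14 passed the test, with a median log2 difference of 1.36. Adgre1, the gene of the macrophage antigen F4/80, had 13.6, 12.9 and 10.1 CPM in C57BL/6J and 1.39 to 12.2 elsewhere. Clec4f, a lectin found on Kupffer cells, had 64.9, 64.1 and 53.8 CPM, within the range of 7.51 to 144 in the others. Summed over the 14 markers, C57BL/6J libraries held 261 to 356 CPM and the other libraries 41.0 to 481. The groups overlapped, and A/J was the nearest strain by the mean of the list. PWK/PhJ had a higher mean than C57BL/6J for Clec4f, Cd68, C1qa, C1qb and C1qc, and A/J for Marco and Timd4. For the remaining markers C57BL/6J had the highest mean. In these bulk libraries a larger number of cells of a type and more RNA per cell cannot be told apart. No marker was at 0 in a C57BL/6J library. Adgre1 and Clec4f were chosen for naming after their values were seen.

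Of 14 markers of liver endothelial cells, Cdh5 alone was called higher, although the median log2 difference was 0.67 and the summed level of 213 to 368 CPM lay within the range of 71.5 to 920 elsewhere. Col3a1 was the marker called among 12 of stellate cells, Ptprc among 3 of lymphocytes and Spp1 among 2 of bile duct cells, all higher. The calls of Cdh5, Col3a1 and Ptprc were lost when replicate 2 or replicate 4 of C57BL/6J was left out, that of Ptprc also without replicate 1, and that of Col3a1 without most single libraries of other strains. Of 5 erythroid genes, Hba-a2 and Hbb-bt were called higher, at 2.57 to 8.85 and 1.51 to 2.87 CPM in C57BL/6J, and the median log2 difference of the 5 was 1.66. Both had counts divided between gene copies in all 27 libraries, and 0 of the 5 were called in the fit with marker levels as covariates. Of 9 neutrophil genes 2 were tested, Csf3r and Ly6g, neither was called, and Ly6g was at 0 in all 3 C57BL/6J libraries. The median of Ly6g in the other libraries was also 0.

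Of 25 genes of antigen presentation 13 were higher beside the Kupffer markers and none lower, with a median log2 difference of 0.88. The count fell to 7 without replicate 2, to 8 without replicate 4 and to 8 without CAST/EiJ. H2-T22 and H2-Q7, class I genes of the same complex as H2-K1, differed by 1.70 (SE 0.13) and 2.40 (SE 0.23) on the log2 scale. H2-Q7 had 36.7, 82.0 and 92.5 CPM against 2.51 to 36.8 in the others, so replicate 1 fell among them. H2-Eb1, a class II gene of antigen-presenting cells named after its values were seen, had 11.6, 12.0 and 10.4 CPM against 0.0460 to 20.1.

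Of 44 genes of the interferon response, 19 were higher and none lower, with a median log2 difference of 0.66. The count was 8 without replicate 2, 11 without replicate 4 and 7 without CAST/EiJ, whose mean level of the list was the lowest of the 9 strains. Iigp1, an interferon-induced GTPase, was called higher although C57BL/6J ranked 5 of 9. It had 229.8, 187 and 181 CPM in C57BL/6J against a median of 201 elsewhere, and its log2 difference was -0.07 without CAST/EiJ. In the marker-adjusted fit 1 interferon gene and 4 antigen presentation genes were called higher, and 1 antigen presentation gene lower. The Kupffer list is not counted in that fit, since its own mean is one of the covariates.

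Complement genes were called in both directions. Of 31 tested, 15 were higher and 4 lower. Without replicate 2, without replicate 4 and without CAST/EiJ the higher genes numbered 6, 6 and 9. In the marker-adjusted fit 2 were called higher and 4 lower. C1qa, C1qb and C1qc, called higher in the main fit, are also Kupffer markers and so enter a covariate of the marker-adjusted fit. Cfhr2, a factor H related protein, had 439, 653 and 704 CPM in C57BL/6J against 119.8 to 475 elsewhere. Hc, which encodes complement C5, had 752, 1418 and 1365 CPM against 178 to 1317, and differed by 1.05 on the log2 scale (SE 0.14).

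The lower complement genes were C1s2, C1rb, C4a and C8a. The call of C1rb was lost without PWK/PhJ replicate 1, and that of C8a without C57BL/6J replicate 1. C1s2, C1rb and C4a have close paralogs, and their counts were divided between copies in all 27 libraries. C1s2 had 0.171, 0.164 and 0.168 CPM in C57BL/6J, and NZO/HlLtJ was as low at 0.117, against a median of 24.8. C4a had 4.58, 6.65 and 9.67 CPM against a median of 90.4, and PWK/PhJ was as low at 5.78. C57BL/6J therefore shared these low levels with other strains. Acute phase genes had 5 higher and 1 lower of 25 (1 and 3 higher without replicates 2 and 4), with Orm1 at 634, 1154 and 1041 CPM against 18.6 to 1127. Apcs, the serum amyloid P gene, was the lower one, at 66.8, 175 and 149 CPM against 42.1 to 889. The 5 coagulation genes called of 26 were all higher, and they numbered 10, 3 and 1 without replicates 1, 2 and 4 and 8 without A/J. In the marker-adjusted fit no acute phase or coagulation gene was called higher.

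The pathway of cholesterol synthesis and uptake makes cholesterol from acetyl-CoA or takes it up from the blood, and the transcription factor encoded by Srebf2 switches its genes on when sterols are low. Of 22 of its genes tested, 13 were called higher, none lower and 9 were not called. All 22 had a positive log2 difference, and the median was 0.86. The count was 20 without replicate 1, 5 without replicate 2, 6 without replicate 4 and 7 without CAST/EiJ. In the marker-adjusted fit it was 2.

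Replicate 1 had the lowest level of the C57BL/6J libraries in these steps of the pathway. The genes of this paragraph were chosen for their place in the pathway after their values were seen. Cyp51, the lanosterol demethylase, had 148, 443 and 375 CPM in replicates 1, 2 and 4, against 21.2 to 252 elsewhere. Sqle, the squalene epoxidase, had 52.7, 219 and 177 CPM against 10.2 to 153. The call of Sqle was lost without replicate 2 or 4. For both genes replicates 2 and 4 lay above all other strains and replicate 1 among them.

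Hmgcs1, an early enzyme of the pathway, had 289, 441 and 374 CPM against 45.6 to 427, and NOD/ShiLtJ matched it at 366 ± 90.1 (SD, n = 3). Sc5d, a late sterol desaturase, had 472, 1019.6 and 1012 CPM against 104 to 694. Its log2 difference was 1.28 (SE 0.20, adjusted p = 6.01e-05, edgeR's quasi-likelihood test). Hsd17b7, another late enzyme, had 64.3, 123 and 132 CPM against 18.7 to 79.0. Srebf2 itself was called higher, and its call was lost without replicate 2 or 4. As a mean of log2(CPM + 0.5) over the list, C57BL/6J replicates stood at 6.36, 7.73 and 7.53, and NOD/ShiLtJ was the nearest strain at 7.06.

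The promoters of the list, called or not, were searched for the letters CCAAT on either strand (ATTGG on the other), the core bound by the factor NF-Y, which is known to work with the sterol-responsive factors. The windows ran from 250 bases before to 50 bases after the RefSeq start, on GRCm38.p6. Of 22 list genes, 15 had an entry and 15 of those held the letters, including all 8 with an entry that were called higher. Over all genes with an entry, tested here or not, 11096 of 27025 genes (41.1%) held them in any of their promoters. A match is a description of letters and not a mapped site. The 3 promoters shown belong to an early, a middle and a late enzyme of the pathway, with the matches in capitals, and they are the C57BL/6J allele because the reference is that strain. Hmgcs1 (chr13:119690101-119690400, plus strand) holds 4 matches, Cyp51 (chr5:4104648-4104947, minus strand) 1 and Sc5d (chr9:42264251-42264550, minus strand) 1.
Hmgcs1: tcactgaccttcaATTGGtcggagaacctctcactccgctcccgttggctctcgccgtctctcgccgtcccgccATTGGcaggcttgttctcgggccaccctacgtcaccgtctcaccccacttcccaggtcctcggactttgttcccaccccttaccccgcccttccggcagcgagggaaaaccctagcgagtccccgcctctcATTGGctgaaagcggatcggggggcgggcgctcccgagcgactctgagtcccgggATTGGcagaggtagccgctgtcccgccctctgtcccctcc
Cyp51: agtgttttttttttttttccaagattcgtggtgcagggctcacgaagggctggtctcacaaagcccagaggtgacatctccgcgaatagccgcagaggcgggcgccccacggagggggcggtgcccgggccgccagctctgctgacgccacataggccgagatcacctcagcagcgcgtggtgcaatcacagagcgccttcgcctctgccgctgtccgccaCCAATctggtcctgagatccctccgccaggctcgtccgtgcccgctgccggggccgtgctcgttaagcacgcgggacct
Sc5d: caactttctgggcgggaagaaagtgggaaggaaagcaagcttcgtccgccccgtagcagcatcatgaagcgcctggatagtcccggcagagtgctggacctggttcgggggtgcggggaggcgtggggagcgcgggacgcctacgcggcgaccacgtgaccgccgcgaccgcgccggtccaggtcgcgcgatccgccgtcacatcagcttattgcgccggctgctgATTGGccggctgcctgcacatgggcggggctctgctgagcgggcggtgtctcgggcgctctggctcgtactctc

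The matches in Hmgcs1 began 237, 176 and 45 bases before the start, with the fourth just after it. Those of Cyp51 and Sc5d lay 29 and 24 bases before the start. The reference holds no sequence of the other strains, so whether they carry the same letters was not examined.

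Lipogenesis, which builds fatty acids, had 5 of 20 genes higher and none lower, with a median log2 difference of 0.47. The count was 9 without replicate 1, 2 without replicate 2, 0 without replicate 4, 2 without CAST/EiJ and 0 in the marker-adjusted fit. Scd1, which makes monounsaturated fatty acids, had 2695, 8344 and 13081 CPM in C57BL/6J against 386 to 7069.6 elsewhere. Again replicate 1 lay among the other strains. Acss2, which makes acetyl-CoA from acetate, had 83.5, 297 and 362 CPM against 62.0 to 281. The calls of both were lost without replicate 4, and that of Acss2 also without replicate 2.

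Fatty acid oxidation went the other way with replicate 1. Of 24 genes of oxidation and of the fatty acid receptor PPAR-alpha, 8 were higher and none lower, and the median log2 difference of 0.42 turned to -0.07 without replicate 1, with 6 genes higher and 2 lower. In the marker-adjusted fit 3 were higher. Vnn1, a pantetheinase that PPAR-alpha switches on, had 242, 103 and 112 CPM against 3.71 to 119.9. Plin2, which coats lipid droplets, had 515, 191 and 319 CPM against 91.5 to 289, and 4 of 16 lipid droplet genes were higher. Its call was lost without replicate 1. Fitm1, a protein of lipid droplet formation, differed by 3.19 (SE 0.27) on the log2 scale, and NZO/HlLtJ was as high.

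Drug-metabolizing enzymes were called in both directions. Of 54 cytochrome P450 genes 23 were higher and 5 lower, with a median log2 difference of 0.56, and 9 and 5 in the marker-adjusted fit. Cyp2a22 had 217, 261 and 160.1 CPM against a median of 41.0, and WSB/EiJ was higher still at 281. Cyp2b13, which is female-biased in mouse liver, had 224, 400.4 and 412 CPM against a median of 221. Its range elsewhere, 1.83 to 731 CPM, enclosed C57BL/6J. Of 23 female-biased liver genes 8 were higher and 3 lower (1 lower without replicate 2 or 4, and 3 higher in the marker-adjusted fit). The lower ones included Sult3a1, a sulfotransferase, at 55.7, 85.1 and 71.9 CPM against a median of 644, and A/J was lower still at 23.4.

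Among 50 conjugating enzymes 14 were higher and 6 lower, and the higher genes numbered 8 without replicate 2, 8 without replicate 4, 9 without CAST/EiJ and 5 in the marker-adjusted fit. The lower genes numbered 12 without A/J. Sult2a2, a steroid sulfotransferase, had 176, 159 and 61.7 CPM against 0.166 to 94.6. Tpmt, which methylates thiopurine drugs, had 8.03, 10.8 and 6.56 CPM against 6.31 to 41.7. PWK/PhJ, at 9.73 CPM, was as low. Of 17 carboxylesterases 7 were higher (3 without replicate 2 or 4, and 2 in the marker-adjusted fit) and 3 lower, the latter being Ces2h, Ces1b and Ces2b. Ces2h had 0.137, 0.246 and 0.463 CPM in C57BL/6J and ranged from 0.223 to 158 in the others, with NZO/HlLtJ as low at 0.321.

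Of 43 genes of the urea cycle and amino acid catabolism 15 were lower, 2 were higher and 26 were not called, with a median log2 difference of -0.32. The lower genes numbered 7 without replicate 2, 6 without replicate 4 and 1 in the marker-adjusted fit. Cth, which makes cysteine, had 215, 300.0 and 231 CPM in C57BL/6J against 175 to 1302. A/J had a lower mean of Cth, at 204 CPM, and the lowest list mean of the 9 strains, while C57BL/6J was the eighth. Cps1, the first enzyme of the cycle, had a log2 difference of -0.29, which did not pass the test. Cps1 was named after its values were seen.

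Ahcy, which clears S-adenosylhomocysteine after methylation reactions, was one of the higher genes in that list. It had 1209, 1183 and 1111 CPM in C57BL/6J against a median of 122, with counts divided between copies in all libraries. PWK/PhJ was higher, at 1341 CPM.

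Hepatocytes divide tasks along the blood path through the lobule, and genes typical of each end were counted, without a test between the lists. Of 20 genes typical of the pericentral end, near the central vein, 7 were higher and none lower. Slc1a2, a glutamate transporter of these cells, was particular to C57BL/6J with 103, 158 and 142 CPM, and replicate 1 and the highest other library both round to 103. Cyp2e1 had 8055, 9066 and 8842 CPM against 3471 to 9532. Of 18 periportal genes 7 were lower and 1 higher. Aldh1b1 had 69.3, 65.8 and 62.4 CPM against a median of 133, and Etnppl 75.7, 46.3 and 45.9 against a median of 111, with NOD/ShiLtJ below C57BL/6J in both. The pericentral count was 4 without replicate 2, the lower periportal count was 4 without replicate 4, and both were 3 in the marker-adjusted fit.

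Of 88 subunits of oxidative phosphorylation 23 were lower in C57BL/6J, none were higher and 65 were not called, and the median log2 difference was -0.33. The count was 47 without replicate 1, 4 without replicate 2, 0 without replicate 4, 8 without CAST/EiJ, 45 without A/J and 0 in the marker-adjusted fit. Sdhb, the iron-sulfur subunit of complex II, had 103, 88.0 and 71.0 CPM against 60.3 to 182. Uqcr10 of complex III had 33.5, 23.5 and 17.3 CPM against 23.7 to 61.1. Replicate 1 had the highest value of the 3 libraries in both genes, and A/J was as low as C57BL/6J in Sdhb, at 76.7 CPM. The calls of both genes were lost without replicate 4, and that of Uqcr10 also without replicate 2.

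Of 93 cytosolic ribosomal protein genes 9 were higher, 13 were lower and 71 were not called, with a median log2 difference of -0.30. The higher share, 9.68%, was below the background of 11.6%, and the lower share was 14.0% against 6.5%. The lower count was 45 without replicate 1, 6 without replicate 2, 1 without replicate 4, 34 without A/J and 1 in the marker-adjusted fit. The list was drawn by the start of the gene name and so takes in ribosomal S6 kinases. Rpl29 had 73.8, 50.2 and 43.1 CPM against a median of 15.3, and Rpl15 28.9, 23.3 and 17.0 against a median of 36.4 (its call was lost without replicate 4). Processed pseudogenes resemble these genes, and their counts were divided in all libraries.

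**Figure D4:**
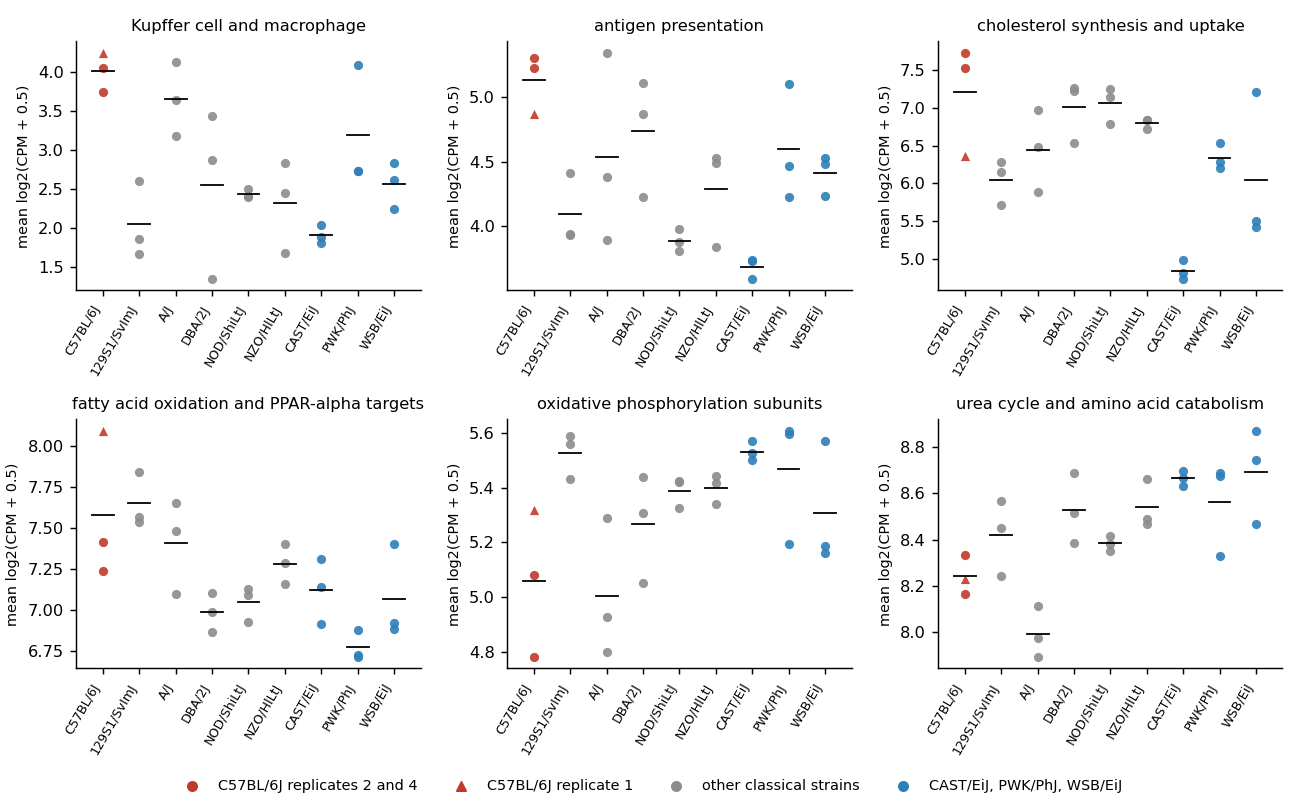
Mean of log2(CPM + 0.5) over the tested genes of 6 lists in each library, grouped by strain, with a black line at the strain mean. The triangle is C57BL/6J replicate 1, which lies apart from replicates 2 and 4 in the cholesterol panel (6.36 against 7.73 and 7.53) and the fatty acid oxidation panel (8.09 against 7.24 and 7.42).

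Stress and regulatory groups were counted too. Of 31 genes of the unfolded protein response and chaperones 10 were higher and none lower, and the count was 4 without replicate 2, 4 without replicate 4, 16 without A/J and 2 in the marker-adjusted fit. Hspa8, a constitutive chaperone, had 643, 883 and 539 CPM against 137 to 762. Of 34 enzymes of histone and DNA methylation 1 was higher and 2 lower: Setd7, a histone methyltransferase, differed by 0.96, Kdm2b, a histone demethylase, by -0.79 and Dnmt3b, a DNA methyltransferase, by -1.06 on the log2 scale. Dnmt3b had 2.22, 1.07 and 2.69 CPM against 1.15 to 8.69. The call of Setd7 was lost when any C57BL/6J library was left out, and that of Dnmt3b without replicate 2. The shares called, 1 of 34 higher and 2 of 34 lower, were below the background of 11.6% and close to that of 6.5%.

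The clock genes had 1 of 19 called, which was lower. Immediate early genes, which rise within minutes of cell stress, had 1 of 21 called. That was Fosl2, at 10.3 CPM in replicate 1 and 4.23 and 5.38 in replicates 2 and 4, against 1.92 to 5.62, and it was not called without replicate 1. Of 30 genes of glucose metabolism 6 were higher and 2 lower (4 and 0 in the marker-adjusted fit), Pfkl and Pgam1 of glycolysis being the lower ones, the second not without replicate 4. Of 26 Nrf2 antioxidant genes 4 were higher and 2 lower, and of 31 iron and heme genes 7 were higher (3 without replicate 4, and 1 in the marker-adjusted fit) and 2 lower. The Nrf2 list had 2 higher genes without replicate 2, 5 lower without replicate 1, 5 lower without A/J, and 1 higher and 0 lower in the marker-adjusted fit. The apolipoprotein list had 7 higher and 2 lower of 25 (4 and 2 higher without replicates 2 and 4, 4 without CAST/EiJ and 1 in the marker-adjusted fit). Apoa4 was one of the lower, at 215, 163 and 175 CPM against 153 to 1968, and CAST/EiJ was as low. Bile acid genes had 4 higher and 2 lower of 18, 0 higher without replicate 4, 4 lower without A/J, and 0 higher and 1 lower in the marker-adjusted fit.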

How the data were processed

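RNA sequencing of hepatocytes from 27 female mice of 9 strains, 3 libraries a strain, was analysed. The authors deposited a table of estimated counts per gene, not scaled to depth, of which 14.7% of values were not whole. The submitters' processing notes name FastQC 0.11.5, DESeq2 and the builds GRCm38 and mm10. The aligner, the counting program and the annotation are not given in the sources used here. Counts were rounded to whole numbers. Symbols and coordinates came from GENCODE M21 (GRCm38), which named 42462 of 43346 genes.

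Strains were taken from the labels. Genes kept by filterByExpr (14482, holding nearly all counts) were fitted over all libraries with edgeR 4.0.16 in R 4.3.3 (TMM scaling, glmQLFit and glmQLFTest, limma 3.58.1), and the C57BL/6J coefficient was contrasted with the mean of the other 8. Non-overlap was read on log2(CPM + 0.5). P-values measure the spread between libraries labelled as biological replicates. The procedure was tested on simulated data. DESeq2 1.42.0, other scalings and filters, omitted libraries and strains, cell-marker covariates and fits with the spread between strains in the error were alternatives.

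Named genes followed a rule: known strain variants; particular genes with at least 2-fold difference and 5 CPM, by distance to the nearest strain (12 per direction, without unnamed, pseudogene and Mup genes); and the 3 with the smallest adjusted p per list and direction. Members and lists were chosen with earlier results of these data known. The SE of a log2 difference is its size divided by the square root of edgeR's F. It thus includes the spread between libraries of a strain, and not the spread between strains. Some genes are not reported here.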

Additional observations from a re-analysis of the deposited data

How the results depend on the processing

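Treating the 8 other strains as a single group left 113 genes called (51 higher, 62 lower; 41 and 54 at least 2-fold), of which 70 were particular (37 higher, 33 lower). Strain means as samples (limma, with C57BL/6J a single value assumed to vary like the other strains) left 8 (2 higher, 6 lower, the same numbers at least 2-fold and all particular), and C57BL/6J then ranked 4 of 9 by genes called. With Kupffer and endothelial marker levels as covariates 845 genes were called (475 higher, 370 lower, 301 at least 2-fold higher). In that fit the median log2 difference turned to -0.0231 for complement, -0.0813 for apolipoproteins, -0.0402 for acute phase, -0.0446 for antigen presentation and -0.44 for lymphocyte markers, and the difference turned to -0.00677 for Hmox1 and -0.44 for Ptprc. The Kupffer median (-0.21) and its members Lyz2 (-0.21), Adgre1 (-0.15) and Clec4f (-0.27) turned by construction, since their mean is a covariate. The complement list shares C1qa, C1qb and C1qc with the Kupffer list, so its median is affected in the same way. Without the 3 wild-derived strains 386 genes were particular (207 higher, 179 lower), C57BL/6J ranked 4, and the differences turned to -0.21 for Iigp1, -0.26 for Ftl1 and 0.00698 for Cyp7b1. Fewer libraries to exceed add particular genes by construction: 221 (120 higher, 101 lower) without A/J, where 1443 genes were called lower, and 227 (130 higher, 97 lower) without PWK/PhJ. Without CAST/EiJ the differences were -0.11 for Ftl1 and -0.0689 for Iigp1. The neutrophil median turned positive with no filter (0.0390), with a mean of at least 10 counts (0.515), without the wild-derived strains (0.844) and without PWK/PhJ (0.654). In the main fit that median rested on 2 genes, of which Ly6g was at 0 in C57BL/6J with a median of 0 CPM elsewhere, so its sign carries little. Apart from fewer libraries or strains, the cause was not tested.

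Leaving out each library in turn gave 1350 to 3208 called genes (916 to 2047 higher, 434 to 1291 lower) and 128 to 373 particular genes (75 to 225 higher, 50 to 148 lower). The fatty acid oxidation median ran from -0.0678 to 0.567, the lowest without C57BL/6J replicate 1. Replicate numbers did not pair libraries: deviations of the 16 same-numbered pairs had a mean correlation of 0.006. With the replicate number as a block 2407 genes were called and 123 were particular, 122 of them shared. DESeq2 gave 121 particular genes (114 shared) and median-of-ratios scaling 121 (115 shared), and CPM not scaled by TMM factors 118 (83 shared).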
